A study of Homo sapiens with 8 samples.

Results

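The TRAIL-resistant Jurkat subclone TR2 was compared with the parental line it was selected from. Jurkat is a human T cell leukaemia line. The parental cells (WT) are labelled TRAIL sensitive and untreated, and TR2 is labelled TRAIL resistant, obtained with the other subclones TR1 and TR3 by holding Jurkat cells under 1000 ng/mL TRAIL for 12 weeks. The comparison uses 4 of the 8 arrays of the study, 2 of TR2 and 2 of WT, which are biological duplicates per the labels, and the 4 arrays of TR1 and TR3 serve to show where TR2 differs from its sister lines. All lines grew in Iscove's medium with serum and antibiotics, no treatment preceded RNA extraction, and no engineered allele is given for any line. The duplicates of TR2 are samples of 1 subclone, so p-values do not measure a spread between independent selections. They rest on the spread left between duplicates, pooled over all lines, once the replicate shift shared by the lines is removed. An unselected subclone was not profiled, so the part of TRAIL resistance in a difference cannot be told apart from that of subcloning or of longer culture.

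TRAIL is a ligand of the tumour necrosis factor family that binds the death receptors DR4 and DR5. The receptors recruit the adaptor FADD and the initiator caspase-8, which activates effector caspases directly or through the mitochondrial BCL2 family, while c-FLIP, the product of CFLAR, competes with caspase-8 at the receptor. Jurkat cells otherwise resemble immature T cells: they carry a T cell receptor, the CD1 lipid-presenting molecules of cortical thymocytes, and GIMAP proteins, GTPases of lymphocytes that act in their survival.

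RNA was read on an Illumina HumanRef-8 BeadChip with 22184 probes. A probe was tested when it was detected (detection p under 0.05) on both TR2 arrays or on both WT arrays, which held for 12720 probes (57.3%) standing for 10397 genes. Levels below are the deposited processed intensities, in arbitrary units, and a difference is the log2 of TR2 over WT with its standard error (SE, n = 2 arrays per line). Since dim probes carry background, their differences are compressed towards 0. Each array detected between 12408 and 13437 probes, raw median signals ran from 68.08 to 82.98, and duplicates correlated at 0.995 to 0.9974 across probes. All 8 of 8 markers of T cells were detected on both arrays of both lines, and 1 of them, CD3D, was called lower in TR2. Of the markers of myeloid and erythroid cells 0 were tested. Of those of B, natural killer, epithelial, fibroblast and endothelial cells 6 were tested, each between -0.26 and 0.18, and 0 were called (2 at an unadjusted p under 0.05). In a culture, fewer cells of one kind and less RNA per cell cannot be told apart.

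TR2 departed from WT at 212 genes that were higher and 220 that were lower (limma with the replicate number as a block, Benjamini-Hochberg adjusted p under 0.05). These are 2.04% and 2.12% of the tested genes, 4.16% in all. Most of the differences were small. Their median size was 0.41 on the log2 scale among the higher genes and -0.41 among the lower ones, and the smallest called difference was 0.30. Over 1.5-fold, 38 genes were higher and 36 lower, and over 2-fold 9 and 6. Over all tested genes the median difference was -0.0022, with quartiles at -0.0945 and 0.0887. Each of the 432 called genes moved the same way in both replicate pairs. The fit with the block favours such genes, and their share among all tested genes was not counted. For 408 of the 432 the TR2 and WT intensities did not overlap, as they did not for 40.3% of all tested genes. Where non-overlap is given below for a called gene, it is therefore no separate support. At an unadjusted p under 0.05 there were 1833 genes. Without the block 43 genes were higher and 35 lower (0.414% and 0.337%), and all of these were also called with it. Without TR2 replicate 2 the probes called were 84 higher and 55 lower, and without WT replicate 1 they were 383 and 387, against 261 and 257 on all arrays (2.05% and 2.02% of tested probes, 4.07% together). Without WT replicate 2 they were 97 and 73, and without TR2 replicate 1 102 and 111.

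**Figure D1:**
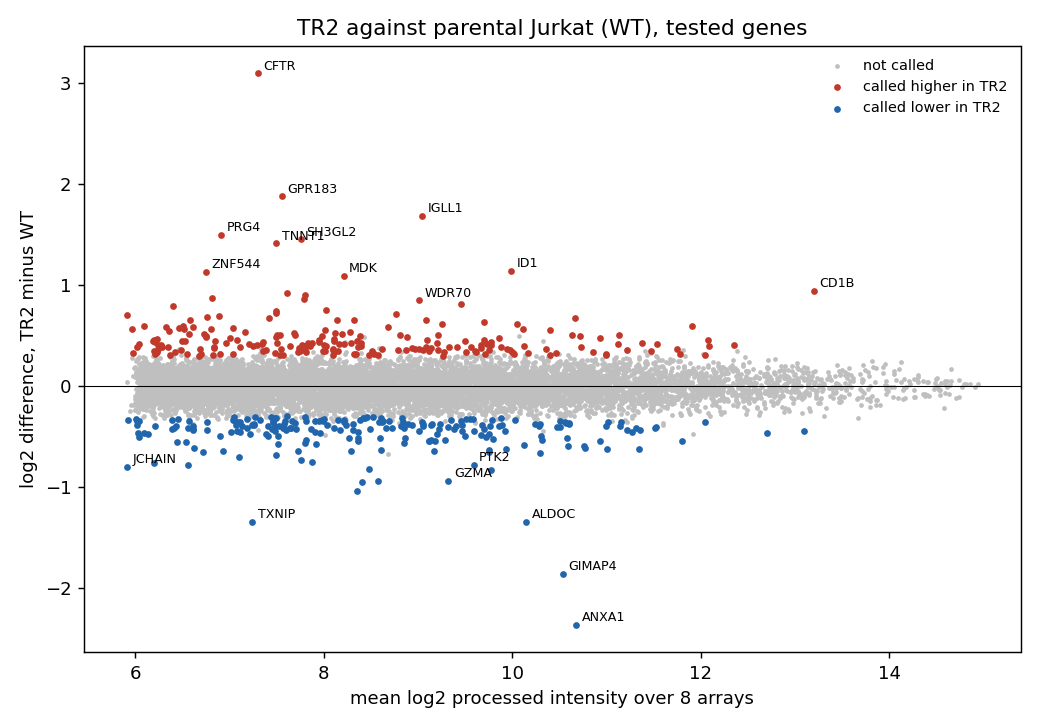
Each point is a tested gene of the array, leaving out Y-linked genes. The x axis is its mean log2 processed intensity over the 8 arrays and the y axis the log2 difference of TR2 minus WT; red and blue points are called higher and lower (adjusted p under 0.05). CFTR at 3.09 and ANXA1 at -2.36 lie farthest from 0, and most called genes lie within 1 log2 unit of it.

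The genes that rose most in TR2 are known from very different tissues. CFTR, which encodes the chloride channel mutated in cystic fibrosis, had intensities of 138 and 88.0 in WT (replicates 1 and 2, the order used throughout) and 1152 and 769 in TR2. Both TR2 arrays lay well above both WT arrays, and CFTR rose by 3.09 ± 0.12 (adjusted p = 3.6e-12), 8.53-fold. GPR183, the oxysterol receptor that guides lymphocytes within lymphoid tissue, stood at 233 and 204 in WT and 994 and 650.1 in TR2 and rose by 1.88 ± 0.13 (adjusted p = 1.2e-08). The surrogate light chain gene IGLL1 of B cell precursors went from 680.4 and 407 to 1726 and 1666 and rose by 1.69 ± 0.12 (adjusted p = 1.7e-08), and its other probe gave 1.74. In GPR183 and IGLL1, too, the arrays of the lines did not overlap.

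PRG4, the gene of the joint lubricant lubricin, was dim in WT at 97.8 and 81.6 and stood at 272 and 233 in TR2, and rose by 1.495 ± 0.11 (adjusted p = 4.2e-08). SH3GL2, endophilin A1 of endocytic membranes, went from 328 and 221 to 787 and 690.1 and rose by 1.45 ± 0.10 (adjusted p = 1.6e-08). TNNT1, troponin T of slow skeletal muscle, had 131 and 128 in WT and 329.5 and 362 in TR2 and rose by 1.41 ± 0.085 (adjusted p = 1.9e-09). The duplicates of each line lay close together for TNNT1 and far from those of the other line. ID1, which blocks basic helix-loop-helix transcription factors, varied widely between duplicates, with 984 and 558 in WT and 2103 and 1274 in TR2. It rose by 1.14 ± 0.12 (adjusted p = 3.6e-06, 0.089 without the block), while its other probe stood at 0.20 and was not called. MDK, the growth factor midkine, went from 175 and 185 to 376 and 389.8 and rose by 1.09 ± 0.09 (adjusted p = 2e-07), and its other probe gave 0.22 with no call. CD1B, a presenter of lipid antigens, stood in WT at 8136 and 8351. It reached 15289 and 16486 in TR2 and rose by 0.95 ± 0.083 (adjusted p = 4.5e-07).

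The zinc finger gene ZNF544 rose by 1.13 ± 0.098 (adjusted p = 4.5e-07). The long non-coding RNA gene CCDC26 rose by 0.92 ± 0.083 (adjusted p = 6.9e-07), INSM1, a transcription factor of neuroendocrine cells, rose by 0.88 ± 0.088 (adjusted p = 3.5e-06), and IGF2BP2, an RNA-binding protein of fetal tissues, rose by 0.86 ± 0.086 (adjusted p = 3.3e-06). RAI14, which binds actin, went from 241 and 223 to 422 and 442 and rose by 0.90 ± 0.13 (adjusted p = 0.00021, 0.059 without the block). WDR70, a WD-repeat protein gene, went from 516 and 488 to 951 and 857 and rose by 0.85 ± 0.082 (adjusted p = 2.2e-06). For all 15 of these genes, including ID1 and RAI14, the TR2 and WT intensities did not overlap, as for 40.3% of all tested genes. For each of them the call was kept whichever of the 4 arrays was left out.

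Among the genes that fell, ANXA1 and GIMAP4 stood out by size. ANXA1, annexin A1, a phospholipid-binding protein induced by glucocorticoids, had 2378 and 3294 in WT and stood at 616 and 483 in TR2. It fell by 2.36 ± 0.13 (adjusted p = 8e-10), 5.13-fold on this scale. GIMAP4 is described with its family. ALDOC, aldolase C of glycolysis, was higher in replicate 2 of both lines, at 1303 and 2530.1 in WT and 546 and 938 in TR2, and fell by 1.34 ± 0.14 (adjusted p = 4.3e-06, 0.17 without the block). TXNIP, which binds thioredoxin and limits glucose uptake, was detected on 1 of 2 TR2 arrays. Its intensities were 126 and 206 in WT and 69.4 and 58.0 in TR2, and it fell by 1.34 ± 0.17 (adjusted p = 4.3e-05). ABCG1, a cholesterol exporter, went from 351 and 553 to 176 and 263 and fell by 1.03 ± 0.11 (adjusted p = 1.3e-05, 0.17 without the block), while its other probe stood at 0.03 (adjusted p = 0.93).

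EEF1A2, a translation elongation factor of muscle and nerve, had 444 and 555 in WT and 235 and 281 in TR2 and fell by 0.95 ± 0.087 (adjusted p = 9.2e-07). PTK2, focal adhesion kinase, was even between duplicates, at 993 and 1039 in WT and 585 and 600.3 in TR2, and fell by 0.78 ± 0.091 (adjusted p = 2.7e-05). ADTRP, a membrane hydrolase of fatty acid esters, fell by 0.78 ± 0.11 (adjusted p = 0.00028, 0.09 without the block). FGD3, of a family of exchange factors for CDC42, fell by 0.75 ± 0.11 (adjusted p = 0.00042, 0.11 without the block). For ADTRP and FGD3, as for ALDOC and ABCG1, the call needed the block. The probe of TPM3P9, a pseudogene of tropomyosin 3, fell by 0.82 ± 0.097 (adjusted p = 2.9e-05), and it may share signal with near-identical copies. The test no longer called FGD3 without TR2 replicate 2 (adjusted p = 0.053). For ANXA1, GIMAP4, ALDOC, TXNIP, ABCG1, EEF1A2, PTK2, ADTRP and TPM3P9 the call was kept whichever of the 4 arrays was left out.

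**Figure D2:**
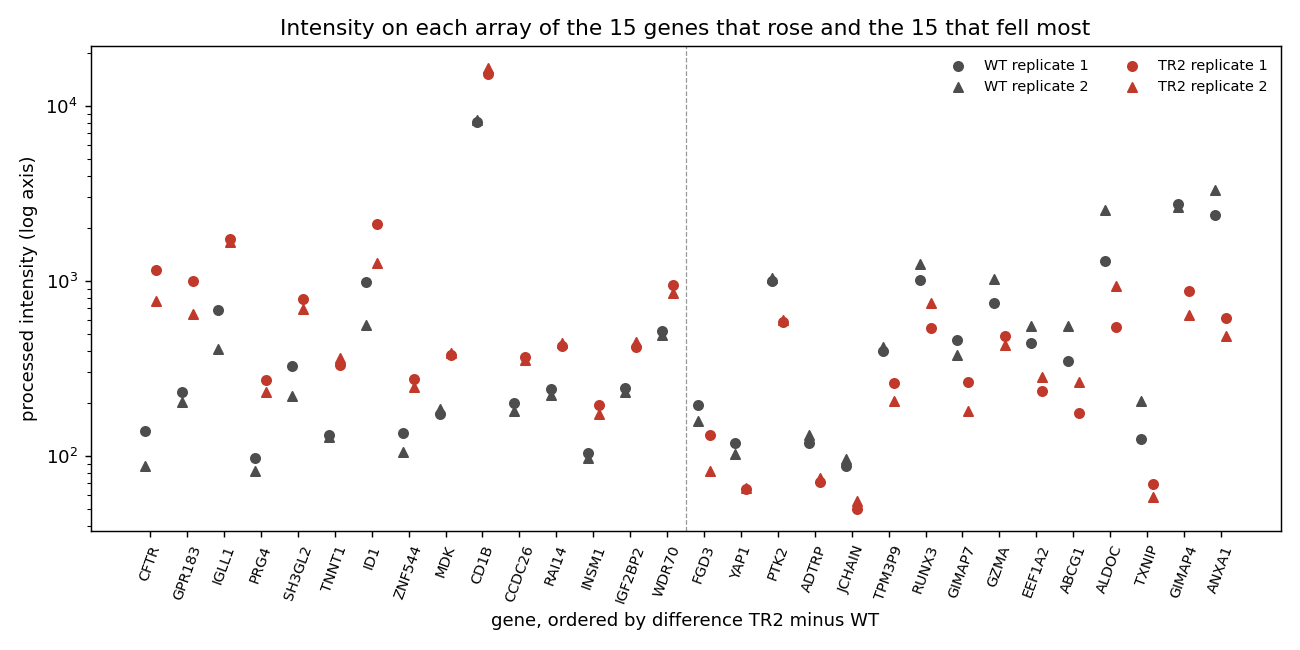
Processed intensity (log axis) on each of the 4 arrays, for the 15 genes that rose most in TR2 and the 15 that fell most, leaving out Y-linked genes. Grey symbols are WT and red symbols TR2, circles replicate 1 and triangles replicate 2; the dashed line divides genes that rose (left) from genes that fell. In no gene do the WT and TR2 symbols overlap, as in 408 of the 432 called genes and 40.3% of all tested genes. CFTR goes from 138 and 88.0 to 1152 and 769.

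Of the genes listed for the death-inducing signalling complex, which forms at the TRAIL receptors, and for proteins associated with it, 1 was called. CFLAR, the caspase-8 inhibitor, was dim, at 109 and 101 in WT and 80.5 and 75.1 in TR2, with no overlap between the lines. It fell by 0.43 ± 0.085 (adjusted p = 0.0054) and was called without the block too (adjusted p = 0.046). The call did not hold for CFLAR without TR2 replicate 2 (adjusted p = 0.15). It was the 1 called gene of 10 tested in this list, whose median difference was 0.0075. The share called over all tested genes was 4.16%. The list is wider than the core of the complex. CASP8 itself had 137 and 164 in WT and 163 and 149 in TR2 (0.058 ± 0.10, adjusted p = 0.82), and the adaptor FADD had 934 and 845 in WT and 946 and 841 in TR2 (0.006 ± 0.086, adjusted p = 0.98). In both genes the lines overlapped. CASP10 stood at 0.009 ± 0.085, the scaffold protein PEA15 at 0.036 ± 0.087, CASP8AP2 at -0.011 ± 0.085, DAXX at 0.054 ± 0.082 and the chaperone HSPA8 at -0.12 ± 0.085. CYLD, which removes ubiquitin chains, stood at -0.18 ± 0.09 and the inhibitor gene FAIM at 0.15 ± 0.094. The adjusted p of these genes lay between 0.31 and 0.98.

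For TRAIL and its receptors 2 of 6 genes could be tested and limma called 0 (1, TNFRSF10B, at an unadjusted p under 0.05). TNFRSF10B, the receptor DR5, had 431 and 593 in WT and 403 and 482 in TR2 (-0.20 ± 0.088, adjusted p = 0.25). TNFSF10, the gene of TRAIL, had 93.7 and 118 in WT and 96.0 and 93.9 in TR2 (-0.15 ± 0.098, adjusted p = 0.46). The lines overlapped in both. The probe of TNFRSF10C, a decoy receptor, was detected on 1 of 2 WT arrays and on neither TR2 array, and those of TNFRSF10A, TNFRSF10D and TNFRSF11B on 0 arrays of either line. For DR4, the product of TNFRSF10A, the arrays therefore give no level in either line.

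The later steps of apoptosis gave no call. Of 4 tested anti-apoptotic BCL2 family genes, 13 pro-apoptotic ones, 11 genes of the apoptosome, effector caspases and nucleases, and 5 inhibitors of apoptosis, limma called 0, also 0 at an unadjusted p under 0.05, and the differences lay between -0.22 and 0.17. BCL2 stood at 0.047 ± 0.088, MCL1 at 0.023 ± 0.09, BAX at -0.044 ± 0.092 and XIAP at -0.018 ± 0.085, named here for their role after their values were seen. The medians of the 4 lists were 0.023, -0.041, 0.025 and -0.015, against -0.0022 over all genes. Over all tested genes limma called 4.16%, so lists of these sizes would hold few calls at that share. At an unadjusted p under 0.05 there were 1833 of 10397. Of 9 other death receptors and ligands of the tumour necrosis factor family 1 was called. CD27, a costimulatory receptor, had 196 and 305 in WT and 161 and 206 in TR2. It fell by 0.42 ± 0.092 (adjusted p = 0.01, 0.45 without the block), although the lines overlapped, since replicate 2 was higher in both. The threshold was missed for CD27 without WT replicate 2 or either TR2 array (adjusted p up to 0.23).

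**Figure D3:**
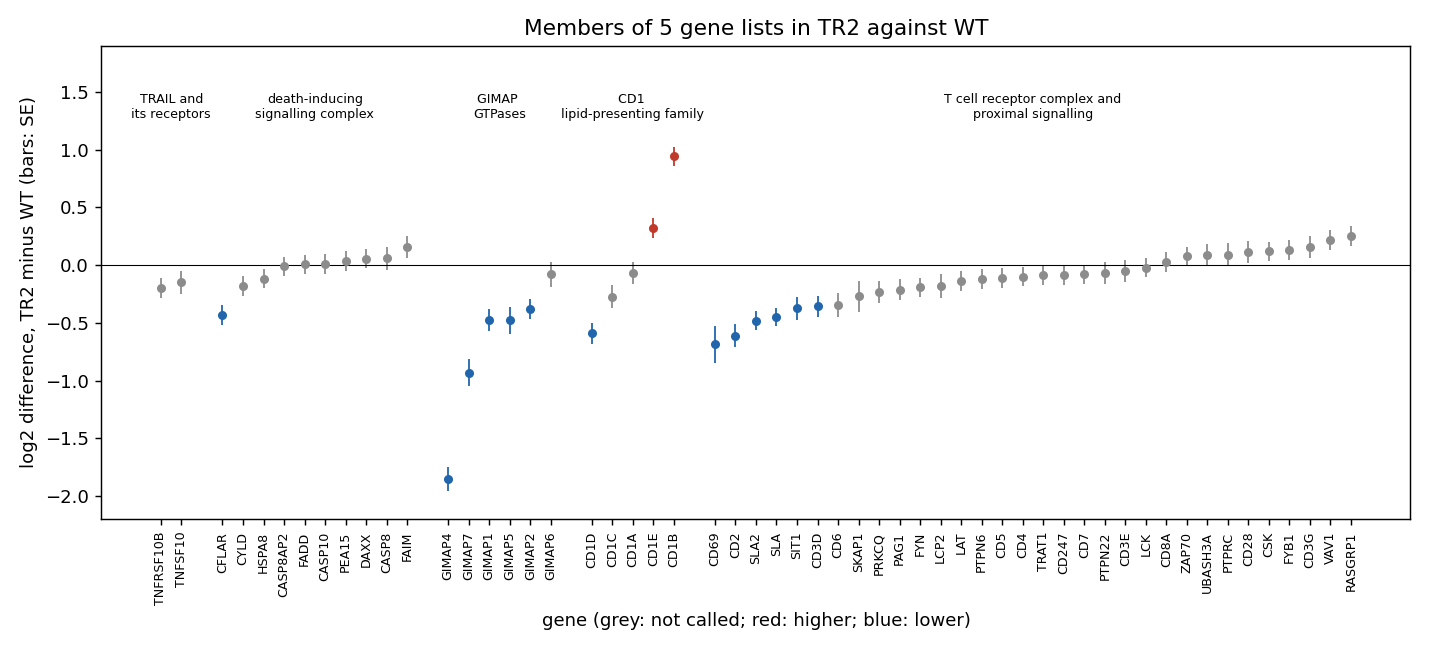
Log2 difference of TR2 minus WT (points) with its SE (bars) for the tested members of 5 gene lists, ordered by difference within each list. Grey points were not called, blue points were called lower and red points higher; 5 of 6 GIMAP genes lie below 0 in blue, and CFLAR is the blue point of the death-inducing signalling complex.

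The GIMAP family was lower in most of its members: 5 of 6 tested members were lower in TR2 and 0 higher, with a median of -0.48. The share called over all tested genes was 4.16%, and without the block 2 of the 6 were lower. GIMAP4 stood at 2752 and 2634 in WT and 871 and 635 in TR2, and fell by 1.85 ± 0.10 (adjusted p = 8e-10), 3.62-fold. GIMAP7 had 459.5 and 377 in WT and 263 and 180.2 in TR2 and fell by 0.93 ± 0.12 (adjusted p = 5e-05). GIMAP1 went from 182 and 156 to 132 and 111 and fell by 0.48 ± 0.096 (adjusted p = 0.0062, 0.086 without the block). GIMAP2, at 183 and 179 in WT and 136 and 142 in TR2, fell by 0.38 ± 0.082 (adjusted p = 0.01, 0.059 without the block). In these 4 genes the lines did not overlap, as in 40.3% of all tested genes. In GIMAP5 they did, at 688 and 531 in WT and 568 and 332 in TR2, and it fell by 0.48 ± 0.12 (adjusted p = 0.025, 0.43 without the block). GIMAP6 had 354 and 290.1 in WT and 332 and 276 in TR2 and was not called (-0.081 ± 0.11, adjusted p = 0.74). No call was made for GIMAP1 without WT replicate 1 or TR2 replicate 2 (adjusted p up to 0.2), and GIMAP5 without either WT array or TR2 replicate 2 (adjusted p up to 0.59). The same held for GIMAP2 without WT replicate 2 or either TR2 array (adjusted p up to 0.14). GIMAP8, the remaining member, was not tested, since it was not detected on both arrays of either line.

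The GIMAP genes lie side by side on chromosome 7, and their promoters were set beside each other to see what the genes that fell share. RefSeq (GRCh38.p14) gives a window of 300 bases, from 250 before to 50 after the gene start, for all 7 genes. The longest stretch that at least 3 of these windows share, on either strand, is 14 bases long and occurs in GIMAP7, GIMAP1 and GIMAP2, 3 genes that fell. It was searched for after the sequences were seen. Counted from the gene start it begins at position -52 in GIMAP7, -60 in GIMAP1 and -57 in GIMAP2, where it lies on the other strand. It is shown in capitals in the 3 windows, on the plus strand, with GIMAP7 at chr7:150514622-150514921, GIMAP1 at chr7:150716363-150716662 and GIMAP2 at chr7:150685456-150685755.
GIMAP7: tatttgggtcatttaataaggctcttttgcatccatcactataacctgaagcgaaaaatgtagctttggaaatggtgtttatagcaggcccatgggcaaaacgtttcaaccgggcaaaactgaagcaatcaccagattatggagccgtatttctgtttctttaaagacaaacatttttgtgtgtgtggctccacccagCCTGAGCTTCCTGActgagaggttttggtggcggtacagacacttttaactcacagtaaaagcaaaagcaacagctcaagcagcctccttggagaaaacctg
GIMAP1: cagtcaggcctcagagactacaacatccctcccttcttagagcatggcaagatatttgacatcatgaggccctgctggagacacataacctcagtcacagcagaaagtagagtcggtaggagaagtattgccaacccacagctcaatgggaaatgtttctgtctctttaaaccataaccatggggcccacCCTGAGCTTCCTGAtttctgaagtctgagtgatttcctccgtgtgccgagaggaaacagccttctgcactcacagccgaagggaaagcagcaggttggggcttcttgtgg
GIMAP2: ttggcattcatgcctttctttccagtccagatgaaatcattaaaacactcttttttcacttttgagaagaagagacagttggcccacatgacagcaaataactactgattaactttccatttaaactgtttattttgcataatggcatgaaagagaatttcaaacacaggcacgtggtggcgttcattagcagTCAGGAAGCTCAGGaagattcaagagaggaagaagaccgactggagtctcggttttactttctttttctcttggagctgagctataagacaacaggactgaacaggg

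Of all 35116 promoter windows of the same length, 4 (0.0114%) hold the stretch, the 4th belonging to a GIMAP1-GIMAP5 readthrough gene. The stretch was picked because GIMAP windows share it, so this percentage cannot test a link with the genes that fell. Whether the stretch bears on their level was not tested. The windows of GIMAP4, GIMAP5, GIMAP6 and GIMAP8 do not hold these letters. GIMAP4, which fell most, and GIMAP6, which was not called, are alike in this respect.

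Genes of the T cell receptor and its signalling were lower where they were called: 6 of 32 tested were lower and 0 higher, with a median of -0.094. Over all tested genes 4.16% were called, and without the block 1 of the 32 was. CD2, an adhesion receptor of T cells, went from 1859 and 2283 to 1348 and 1349 and fell by 0.61 ± 0.10 (adjusted p = 0.001, 0.11 without the block). CD69, an early activation marker, differed between the WT duplicates (165 and 347) and stood at 149 and 149 in TR2. It fell by 0.68 ± 0.16 (adjusted p = 0.019, 0.29 without the block). SLA2, an adaptor that dampens receptor signalling, had 952 and 892 in WT and 669.9 and 649 in TR2 and fell by 0.48 ± 0.083 (adjusted p = 0.0015). Its relative SLA had 2769.7 and 3443 in WT and 2046 and 2501 in TR2 and fell by 0.45 ± 0.082 (adjusted p = 0.0027, 0.24 without the block). CD2, SLA2 and SLA did not overlap between the lines, nor did CD69, as holds for 40.3% of all tested genes. CD3D, a chain of the receptor complex, fell by 0.36 ± 0.093 (adjusted p = 0.033, 0.19 without the block). The 6th gene, SIT1, had -0.37 ± 0.096 (adjusted p = 0.031, 0.5 without the block). The other chains and the kinases, given after their values were seen, were not called: CD3E stood at -0.051 ± 0.094, CD3G at 0.16 ± 0.096, CD247 at -0.086 ± 0.084, LCK at -0.021 ± 0.085 and ZAP70 at 0.077 ± 0.084. The call was lost for CD2 and SLA without TR2 replicate 2 (adjusted p = 0.1 and 0.062), and CD69 without WT replicate 2 or TR2 replicate 2 (adjusted p up to 0.47). This also applied to CD3D without WT replicate 1 or either TR2 array (adjusted p up to 0.4).

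Transcription factors of thymocytes and T cell leukaemia moved in both directions, 4 higher and 3 lower of 34 tested, against 4.16% called of all genes. Without the block 1 was higher and 0 lower. Besides ID1, ZBTB16, the factor of innate-like T cells, went from 163 and 181 to 304 and 275 and rose by 0.75 ± 0.092 (adjusted p = 4.3e-05), and its other probe rose by 0.57. RUNX3, a regulator of the CD8 lineage, had 1008 and 1256 in WT and 539.5 and 746 in TR2. It fell by 0.83 ± 0.091 (adjusted p = 1.3e-05, 0.076 without the block), but its other probe stood at 0.08 (adjusted p = 0.69). KLF2, which controls the exit of T cells from the thymus, had 6551 and 5861 in WT and 6019.7 and 3349 in TR2, with overlap, and fell by 0.46 ± 0.12 (adjusted p = 0.036, 0.43 without the block). The remaining called members were DTX1, a regulator of Notch (0.43 ± 0.085), SATB1, an organiser of thymocyte chromatin (0.38 ± 0.10), and FLI1, an ETS factor (-0.38 ± 0.083). Their adjusted p was 0.0061, 0.041 and 0.011, or 0.17, 0.2 and 0.062 without the block. The test no longer called KLF2 without WT replicate 2 or TR2 replicate 2 (adjusted p up to 0.71).

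The CD1 family split, with 2 of 5 tested members higher and 1 lower, against 4.16% called over all tested genes. CD1B rose, CD1E went from 104 and 115 to 134 and 139.5 and rose by 0.32 ± 0.084 (adjusted p = 0.035, 0.15 without the block), and CD1D, which presents lipids to natural killer T cells, went from 1828 and 1994 to 1319 and 1216 and fell by 0.59 ± 0.094 (adjusted p = 0.00073). CD1A (-0.069 ± 0.094) and CD1C (-0.27 ± 0.097) were not called. Of 8 tested V(D)J recombination genes 1 was called: RAG1, the recombinase subunit, had 129 and 87.3 in WT and 157 and 187 in TR2 and rose by 0.69 ± 0.13 (adjusted p = 0.0027, 0.078 without the block). Of 9 tested B-lineage genes 1 was higher and 2 lower. Besides IGLL1, the kinase gene BLK went from 391 and 389.5 to 312 and 291 and fell by 0.37 ± 0.086 (adjusted p = 0.016, 0.086 without the block). JCHAIN, the joining chain of polymeric antibodies, was detected on both WT arrays (87.0 and 95.4) and on neither TR2 array (49.9 and 55.0). Its level in TR2 was at least 1.35-fold lower (adjusted p = 5e-06), a bound set by the lowest signal of a detected probe on the TR2 arrays or by the probe's own signal, whichever was higher. The call did not hold for CD1D without TR2 replicate 2 (adjusted p = 0.055), and RAG1 without WT replicate 2 or TR2 replicate 2 (adjusted p up to 0.2). This also applied to BLK without either WT array or TR2 replicate 2 (adjusted p up to 0.32), and CD1E without any 1 of the 4 arrays (adjusted p up to 0.27).

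Of 11 tested cytotoxic granule genes 2 were lower and 1 higher, where 4.16% of all tested genes were called. GZMA, granzyme A, had 745 and 1024 in WT and 485 and 429 in TR2 and fell by 0.94 ± 0.12 (adjusted p = 7.4e-05). NKG7, a granule membrane protein, went from 254 and 205 to 186 and 134 and fell by 0.53 ± 0.089 (adjusted p = 0.0011, 0.2 without the block). GZMH, granzyme H, was dim at 90.2 and 72.0 in WT and 106 and 97.6 in TR2 and rose by 0.34 ± 0.091 (adjusted p = 0.041, 0.22 without the block). The lines did not overlap in any of the 3, as in 40.3% of all tested genes. The threshold was missed for NKG7 without TR2 replicate 2 (adjusted p = 0.087), and GZMH without WT replicate 2 or either TR2 array (adjusted p up to 0.44).

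Receptors that position lymphocytes in tissue were called in 4 of 10 tested, and GPR183 was the 1 that rose. The share called over all tested genes was 4.16%. S1PR1, the receptor for exit from lymphoid organs, had 501 and 492 in WT and 372 and 314 in TR2 and fell by 0.54 ± 0.087 (adjusted p = 0.00083). GPR18, a receptor of lymphocytes, went from 153 and 142 to 97.7 and 83.5 and fell by 0.70 ± 0.086 (adjusted p = 4.3e-05). CCR7, the homing receptor for lymph nodes, stood at 96.2 and 116 in WT and 84.8 and 74.7 in TR2 and fell by 0.41 ± 0.099 (adjusted p = 0.021, 0.15 without the block). Of 20 tested integrins and adhesion molecules 4 were lower and 1 higher, with a median of -0.15. Without the block 0 of the 20 were called. The tetraspanin gene CD9 went from 1285 and 1559 to 835 and 1069 and fell by 0.58 ± 0.083 (adjusted p = 0.00025, 0.12 without the block). ALCAM fell by 0.42 ± 0.087 (adjusted p = 0.0078, 0.061 without the block), the LFA-1 integrin chain ITGAL fell by 0.41 ± 0.099 (adjusted p = 0.022, 0.16 without the block) and PECAM1 fell by 0.40 ± 0.087 (adjusted p = 0.011, 0.074 without the block). The integrin chain ITGA4 had 596 and 661 in WT and 964 and 702 in TR2 and rose by 0.39 ± 0.11 (adjusted p = 0.049, 0.33 without the block). ABCG1 was the 1 called of 11 genes of oxysterol and cholesterol handling. No call was made for S1PR1 without TR2 replicate 2 (adjusted p = 0.057), and CCR7, ALCAM and PECAM1 without WT replicate 2 or TR2 replicate 2 (adjusted p up to 0.48, 0.19 and 0.3). This also applied to ITGAL without WT replicate 2 or either TR2 array (adjusted p up to 0.39), and ITGA4 without WT replicate 1 or either TR2 array (adjusted p up to 0.49).

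Of 26 tested genes of glycolysis and the hypoxia response 4 were lower and 0 higher (median -0.13), against 4.16% called over all tested genes. In each of the 4 the signal was higher in replicate 2 than in replicate 1 in both lines. SLC2A3, a glucose transporter, had 1194 and 2005 in WT and 812 and 1409.5 in TR2 and fell by 0.53 ± 0.12 (adjusted p = 0.01, 0.45 without the block). P4HA1, a collagen prolyl hydroxylase, had 657 and 1349 in WT and 474 and 939 in TR2 and fell by 0.50 ± 0.10 (adjusted p = 0.0084, 0.64 without the block), with its other probe at -0.25 and no call. NDRG1 had 261 and 473 in WT and 217 and 314 in TR2 and fell by 0.43 ± 0.096 (adjusted p = 0.013, 0.57 without the block). ALDOC was the other. In SLC2A3, P4HA1 and NDRG1 the lines overlapped, and none of the 4 calls was kept without the block. LDHA stood at -0.21 ± 0.086 (adjusted p = 0.2) and HK2 at 0.068 ± 0.11, both named after their values were seen. The call was lost for SLC2A3 and P4HA1 without WT replicate 2 or TR2 replicate 1 (adjusted p up to 0.26 and 0.2), and NDRG1 without WT replicate 2 or either TR2 array (adjusted p up to 0.29).

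Amino acid and unfolded protein stress genes were called in 4 of 26, 3 higher and 1 lower, against 4.16% of all tested genes. ASNS, asparagine synthetase, had 519.6 and 902 in WT and 883 and 1071 in TR2, with overlap, and rose by 0.51 ± 0.12 (adjusted p = 0.019, 0.48 without the block). The chaperone gene CALR went from 4769 and 2963 to 5364 and 4989 and rose by 0.46 ± 0.11 (adjusted p = 0.021, 0.33 without the block), and the transcription factor gene ATF5 rose by 0.37 ± 0.094 (adjusted p = 0.03, 0.16 without the block). XBP1, a factor of the unfolded protein response, had 610.0 and 844 in WT and 451 and 545 in TR2 and fell by 0.53 ± 0.092 (adjusted p = 0.0016, 0.17 without the block). Of 10 tested genes of the thioredoxin and arrestin system TXNIP was the 1 called, and of 19 oxidative stress genes limma called 0 (2 unadjusted). The test no longer called ASNS without WT replicate 1 or TR2 replicate 1 (adjusted p up to 0.31), and CALR and XBP1 without WT replicate 2 or TR2 replicate 2 (adjusted p up to 0.45 and 0.071). This also applied to ATF5 without WT replicate 2 or either TR2 array (adjusted p up to 0.39).

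Interferon-stimulated and RNA-sensing genes were called in 4 of 27 tested, all lower, with a median of -0.01. Over all tested genes 4.16% were called. TRIM68, a ubiquitin ligase, went from 246 and 243 to 161 and 169 and fell by 0.57 ± 0.087 (adjusted p = 0.00047). IFIH1, a sensor of double-stranded RNA, had 101 and 107 in WT and 76.4 and 78.5 in TR2 and fell by 0.43 ± 0.082 (adjusted p = 0.0042), IFI35 fell by 0.41 ± 0.086 (adjusted p = 0.0082, 0.061 without the block) and IFIT2 fell by 0.33 ± 0.086 (adjusted p = 0.038, 0.17 without the block). Of 26 genes of PI3K, AKT, mTOR and MAPK signalling 2 were lower. PIK3CB, a catalytic subunit of PI3K, fell by 0.35 ± 0.084 (adjusted p = 0.022, 0.3 without the block). EIF4EBP1, a translation repressor controlled by mTOR, was detected on both WT arrays (78.9 and 78.1) and neither TR2 array (57.2 and 62.1), at least 1.16-fold lower (adjusted p = 0.0085, 0.062 without the block). YAP1, the coactivator of the Hippo pathway, went the same way, from 119 and 103 to 64.7 and 65.8, and with a fall of at least 1.64-fold (adjusted p = 2.6e-05) was the 1 called of 12 Hippo genes. The call did not hold for IFI35 without WT replicate 2 or TR2 replicate 2 (adjusted p up to 0.21), and EIF4EBP1 without either TR2 array (adjusted p up to 0.13). The same held for IFIH1 and PIK3CB without WT replicate 2 or either TR2 array (adjusted p up to 0.076 and 0.24), and IFIT2 without any 1 of the 4 arrays (adjusted p up to 0.49).

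Several smaller families had called members. At the 4.16% called over all tested genes, lists of these sizes would hold few calls. Among 17 tested ABC transporters CFTR and ABCB10, a mitochondrial transporter of erythroid cells, were higher; ABCB10 went from 3820.0 and 3484 to 5609 and 5427 and rose by 0.60 ± 0.096 (adjusted p = 0.00079). Of 18 endophilins and other membrane-curving genes SH3GL2 and its paralogue SH3GL3 (375 and 439 in WT, 473 and 547 in TR2) were higher, the latter by 0.33 ± 0.089 (adjusted p = 0.043, 0.21 without the block), and the phosphatase gene SYNJ2 fell by 0.34 ± 0.086 (adjusted p = 0.032, 0.2 without the block). Of 9 troponin and sarcomere genes TNNT1 rose and tropomyosin TPM4 fell by 0.44 ± 0.094 (adjusted p = 0.0094, 0.081 without the block). Of 8 genes of midkine, pleiotrophin and their receptors MDK and ITGA4 were higher, and of 4 oncofetal genes IGF2BP2 was. PPP2R2B, a regulatory subunit of protein phosphatase 2A, rose by 0.59 ± 0.091 (adjusted p = 0.0005), the 1 called of 17 subunits. Of 19 histone genes and chromatin modifiers ARID1A rose by 0.35 ± 0.091 (adjusted p = 0.035, 0.16 without the block), while SMARCA2 fell by 0.42 ± 0.09 (adjusted p = 0.0094, 0.097 without the block) and H1-2 fell by 0.37 ± 0.096 (adjusted p = 0.033, 0.43 without the block). The threshold was missed for ABCB10 and PPP2R2B without TR2 replicate 2 (adjusted p = 0.051 and 0.053), and TPM4 and SMARCA2 without WT replicate 2 or TR2 replicate 2 (adjusted p up to 0.32 and 0.23). This also applied to ARID1A without WT replicate 2 or either TR2 array (adjusted p up to 0.34), and SH3GL3, SYNJ2 and H1-2 without any 1 of the 4 arrays (adjusted p up to 0.44, 0.26 and 0.23).

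Proliferation genes gave no call. Of 28 tested mitosis and G2/M genes, 18 S phase genes and 19 cell cycle inhibitors, cyclins and p53 targets, limma called 0 with or without the block, and the medians of the 3 lists were -0.029, -0.0052 and -0.0027. At an unadjusted p under 0.05 the 3 lists held 7, 1 and 2 genes. Likewise 0 were called of 16 NF-kB genes (3 unadjusted), 12 immediate-early genes (2), 13 genes of antigen presentation (1), 16 of O-glycosylation (2), 9 of eicosanoid synthesis (4) and 17 of the RNA exosome (0). The widest single differences in the 3 proliferation lists were -0.245 and 0.281. As above, limma called 4.16% of all tested genes, and 1833 of 10397 had an unadjusted p under 0.05. At the share called, each of these lists would hold few calls.

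**Figure D4:**
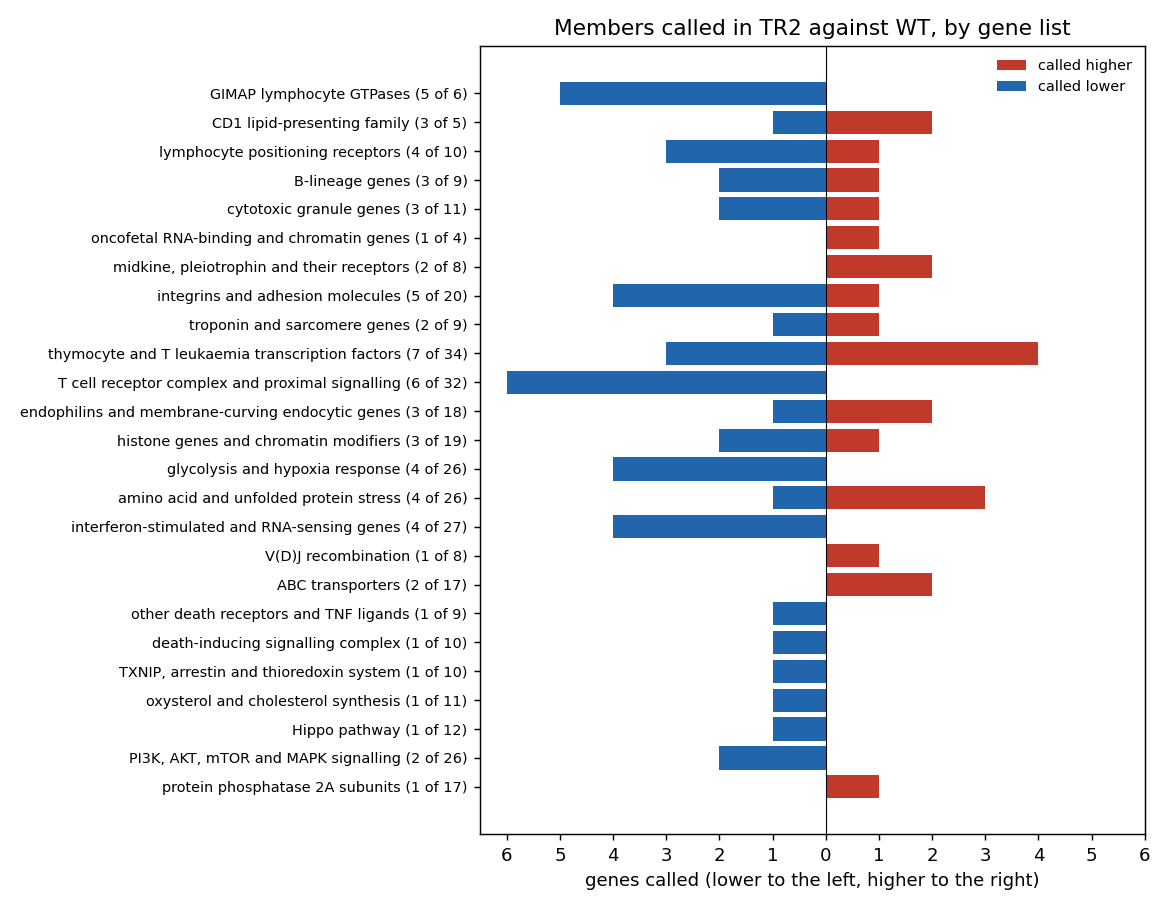
Bars give the number of genes called higher (red, to the right) and lower (blue, to the left) in TR2 against WT for each gene list with a called member, with the number called of those tested written beside its name. The lists are ordered by the share called, from 83.3% in the GIMAP list at the top to 5.88% among protein phosphatase 2A subunits. Over all tested genes it was 4.16%. Lists without a called member are left out. Members and lists were chosen with earlier results of these data known, so the shares do not measure enrichment.

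Called genes that lie next to each other were counted, and how many such runs the share called would give was not computed. Of 10391 genes placed on chromosomes by their order in the GRCh38.p14 annotation, 2 runs of 3 or more successive tested genes were called the same way, and 20 runs of 2. The lower run was GIMAP2, GIMAP1 and GIMAP5 on chromosome 7. The higher run lay on chromosome 4: FGFR3, a growth factor receptor, had 293 and 269 in WT and 382 and 435 in TR2 and rose by 0.54 ± 0.094 (adjusted p = 0.0017). Its neighbour LETM1, of the mitochondrial inner membrane, had 286 and 258 in WT and 385 and 396 in TR2 and rose by 0.52 ± 0.087 (adjusted p = 0.0011). NSD2, a histone methyltransferase, had 139.8 and 162 in WT and 192 and 209.7 in TR2 and rose by 0.42 ± 0.086 (adjusted p = 0.0078, 0.083 without the block), while its other probe stood at 0.07 (adjusted p = 0.74). No call was made for LETM1 without TR2 replicate 2 (adjusted p = 0.077), and FGFR3 without WT replicate 2 or TR2 replicate 2 (adjusted p up to 0.14). The same held for NSD2 without WT replicate 1 or either TR2 array (adjusted p up to 0.14). Along the chromosomes, the medians of 511 windows of 20 successive genes lay between -0.133 and 0.11. Among the autosomes and the X chromosome, chromosome 21 had the lowest median, -0.091 over 106 genes, 70 of them below 0, and its median was -0.069 in TR1 and -0.062 in TR3.

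Leaving out Y-linked genes, 6 genes were called higher in TR2 with no detection on either WT array, and 11 lower with no detection on either TR2 array. With Y-linked genes included, 73 tested genes were detected on both TR2 arrays and neither WT array, and 106 the other way. Such genes passed the detection filter only through the line where they are high, so their p-values are no separate support. JCHAIN, YAP1 and EIF4EBP1 are among the 11. The 5 of the former that were also undetected in TR1 and TR3 are named after their values were seen. MARK1, a kinase that phosphorylates microtubule-associated proteins, had 56.5 and 55.3 in WT and 97.0 and 85.1 in TR2, at least 1.35-fold higher (adjusted p = 4.8e-05). SNAP91, a clathrin assembly protein of synapses, had 57.8 and 57.1 in WT and 87.9 and 82.5 in TR2, at least 1.27-fold higher (adjusted p = 0.00047). The lysophosphatidic acid receptor gene LPAR1 was at least 1.24-fold higher (adjusted p = 0.015), DDX19B at least 1.31-fold (0.0061) and TAFA2 at least 1.1-fold (0.04). The last 3 were not called without the block (adjusted p = 0.086, 0.083 and 0.2).

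TR2 was also set against the other resistant lines, which were selected at the same TRAIL concentration. Against TR1, 706 genes were higher and 547 lower in TR2 (6.79% and 5.26% of tested genes, 12.1% together), or 828 and 643 probes (6.51% and 5.06%, 11.6% together). Against TR3, 226 were higher and 218 lower (2.17% and 2.1%, 4.27% together), or 261 and 246 probes (2.05% and 1.93%, 3.99% together). Without the block the probes called were 408 and 257 against TR1 and 88 and 32 against TR3. With the arrays of TR2 and TR3 fitted alone they were 533 and 540 against TR3, and with array weights 469 and 478. Leaving out 1 array of the lines compared gave 425 to 580 higher and 219 to 381 lower probes against TR1, the fewest without TR2 replicate 2. Against TR3 it gave 107 higher and 57 lower without TR3 replicate 1, 133 and 90 without TR3 replicate 2, 124 and 109 without TR2 replicate 1, and 117 and 45 without TR2 replicate 2.

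Of the 212 genes called higher than WT, 94 were also above both other clones. Of the 220 called lower, 41 were below both, out of 10397 tested genes. In alternatives added after seeing the data, these counts were 24 and 8 without the block, 57 and 28 without WT replicate 2, 36 and 26 without TR2 replicate 1, and 37 and 8 without TR2 replicate 2. They were 57 and 20 without TR3 replicate 1 and 62 and 23 without TR3 replicate 2. The comparisons share the TR2 arrays with each other, so a gene chosen as high or low there tends to differ alike from every line. How many genes lay above or below both clones regardless of WT was not counted. Of the genes that rose most, CFTR exceeded TR1 by 3.41 ± 0.12 and TR3 by 3.79 ± 0.12 (adjusted p = 3e-13 and 8.2e-14). CFTR was detected on 1 of 2 TR3 arrays, and GPR183 on 1 of 2 TR1 arrays. GPR183 exceeded TR1 by 3.42 ± 0.13 and TR3 by 3.06 ± 0.13 (adjusted p = 4.2e-13 and 4e-12). ZNF544 exceeded TR1 by 1.77 ± 0.098. It was not detected on either TR3 array, and TR2 was at least 3.88-fold higher. IGLL1, SH3GL2, PRG4 and WDR70 were likewise above both clones, with differences from 1.14 (PRG4 against TR3) to 3.21 (SH3GL2 against TR1).

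Further genes stood above WT and both clones. TMSB15A, a thymosin that binds actin and has a near-identical copy, TMSB15B, went from 884 and 778 in WT to 1422 and 1491 in TR2 and rose by 0.81 ± 0.12 (adjusted p = 0.0003). CABCOCO1, a calcium-binding protein of cilia, had 114 and 102 in WT and 178 and 144 in TR2 and rose by 0.57 ± 0.091 (adjusted p = 0.00073). PPP2R2B had 119 and 112 in WT and 164 and 184 in TR2. Against WT, TMSB15A stood at -1.24 ± 0.12 in TR1 and -0.51 ± 0.12 in TR3 (adjusted p in TR3 = 0.027, 0.29 without the block). CABCOCO1 was not detected on either array of TR1 or of TR3, so only bounds can be given: WT was at least 1.56-fold above TR1 and 1.61-fold above TR3, and TR2 at least 2.32-fold and 2.39-fold. PPP2R2B was likewise not detected on these 4 arrays. WT was at least 1.67-fold above TR1 and 1.72-fold above TR3, and TR2 at least 2.52-fold and 2.59-fold. The call was lost for CABCOCO1 without TR2 replicate 1 (adjusted p = 0.056).

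Below WT and both clones lay ANXA1, GIMAP4, FGD3, TPM3P9, ABCG1, SLFN11, TRIM68, GPR18, S1PR1 and KLF2. ANXA1 lay -3.15 ± 0.13 from TR1 and -0.86 ± 0.13 from TR3; against WT it was 0.79 ± 0.13 in TR1 and -1.504 ± 0.13 in TR3. Against WT, GIMAP4 stood at -1.85 ± 0.10 in TR2, -1.08 ± 0.10 in TR1 and -0.50 ± 0.10 in TR3 (adjusted p in TR3 = 0.013, 0.21 without the block). SLFN11, which blocks replication under damage, had 1629.9 and 2067 in WT and 1093 and 1364 in TR2 and fell by 0.59 ± 0.10 (adjusted p = 0.0018, 0.086 without the block). Its differences from WT in TR1 and TR3 were 0.18 ± 0.10 and 0.078 ± 0.10. S1PR1 was 0.92 ± 0.087 in TR1 and 0.25 ± 0.087 in TR3, and KLF2 0.61 ± 0.12 and 0.25 ± 0.12. The difference of ABCG1 from TR1 and TR3 (adjusted p = 0.00037 and 0.00093) was lost without the block (0.25 and 0.43), as was that of KLF2 from TR3 (0.0013 and 0.19). Some other named genes moved the same way in the sister lines. Against WT, MDK stood at 0.81 ± 0.09 in TR1 and 0.99 ± 0.09 in TR3. ZBTB16 stood at 0.54 ± 0.092 and 1.10 ± 0.092, and EEF1A2 at -0.95 ± 0.087 and -0.31 ± 0.087 (not called in TR3). Neither YAP1 nor JCHAIN was detected on any array of TR1 or TR3. The 3 clones share the WT arrays in their differences from WT. The test no longer called SLFN11 without WT replicate 2 or TR2 replicate 1 (adjusted p up to 0.081), and KLF2 without WT replicate 2 or TR2 replicate 2 (adjusted p up to 0.71).

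**Figure D5:**
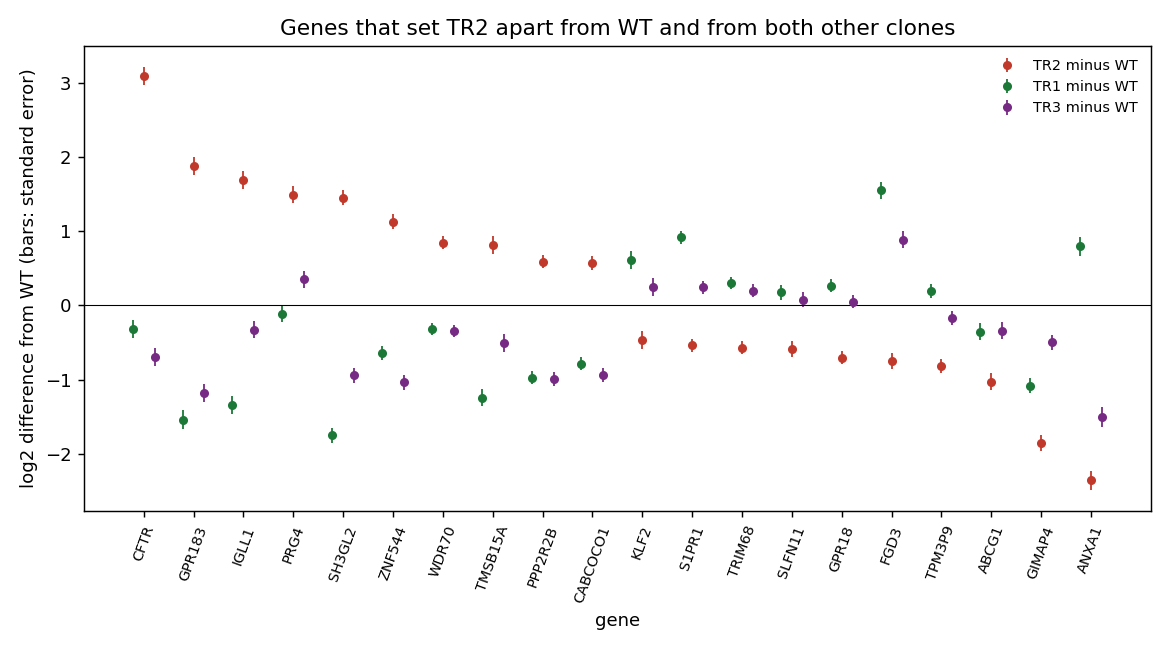
Log2 difference from WT (points, with SE as bars) in TR2 (red), TR1 (green) and TR3 (purple) for up to 10 genes each way, those furthest from both other clones among the genes called against WT, ordered by the TR2 value; the 3 sets share the 2 WT arrays. CABCOCO1 and PPP2R2B were not detected in TR1 or TR3, nor ZNF544 in TR3, so their points there rest on undetected signal. CFTR stands at 3.09 in TR2, -0.31 in TR1 and -0.69 in TR3.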

How the data were processed

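Total RNA of 8 samples was amplified, labelled with biotin and hybridised, per the labels' protocols. The authors deposited raw intensity per probe with detection p-values, per the file headers, and processed intensity values. The latter are linear, each column has a median of 77.2 or 77.21, and each ranks probes as a raw column of its line does, so a common distribution was imposed with no visible background subtraction. The submitters' processing notes name limma with no version or role. The bead summary is not given in the sources used here.

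Processed intensities were taken to log2 and fitted with limma 3.58.1 in R 4.3.3 (lmFit, eBayes) on all 8 arrays with group means and the replicate number as a block (3 residual and 16.2 prior degrees of freedom). Differences between replicates 2 and 1 correlated over the genes with r of 0.291 to 0.448 in the 6 pairs of lines, and the numbers were taken to pair the samples (genes are no independent replicates). The raw columns carry letters that were not matched to numbers and gave detection only, by line. Adjusted p-values cover 12720 probes, and the probe with the highest mean over the arrays stands for a gene. Of 22184 probes, 19715 had 1 gene symbol, 0 several and 2469 none, and 19695 symbols were updated through gene identifiers (GRCh38.p14). The fit was tested on simulated data.

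Named are the 15 genes with the largest difference each way, up to 10 each way that differed alike from TR1 and TR3, the TRAIL pathway, up to 4 called members of each of 40 lists, and runs of neighbours. XIST and Y-linked genes are not named. Members and lists were chosen with earlier results of these data known. Alternatives were the block, raw intensities without the block (normexp offset 16), detection filters, priors, array weights and left-out arrays.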

Additional observations from a re-analysis of the deposited data

Results flagged for a closer look

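Genes are listed here because TR2 and another clone were both called against WT, in opposite directions, and the difference between the clones was itself called in the limma fit with the block. Only the named genes were searched, and some were named because they differ from both other clones. The counts below are therefore raised by that choice and do not stand for all tested genes. The value after each gene is TR2 minus the other clone on the log2 scale (n = 2 arrays per line).

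Against TR1, 27 of the named genes met this. Higher in TR2 and lower in TR1 were RAI14 (1.84), ZNF544 (1.77), WDR70 (1.17), IGLL1 (3.03), SH3GL2 (3.21), GPR183 (3.42), IGF2BP2 (2.29), TMSB15A (2.06), CABCOCO1 (1.36), PPP2R2B (1.57), ABCB10 (1.23), ASNS (1.57), CD1E (0.71), GZMH (0.81), SH3GL3 (1) and RAG1 (1.21). Lower in TR2 and higher in TR1 were ANXA1 (-3.15), FGD3 (-2.31), GIMAP7 (-1.75), TXNIP (-3.90), TRIM68 (-0.87), S1PR1 (-1.46), KLF2 (-1.08), CFLAR (-1.11), NKG7 (-1.01), GIMAP1 (-1.005) and GIMAP5 (-0.93). The adjusted p of these differences lay between 5.3e-14 and 1.5e-05. CFLAR is among them, at -0.43 ± 0.085 in TR2 and 0.68 ± 0.085 in TR1 against WT.

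CABCOCO1, PPP2R2B and GZMH were not detected on either TR1 array, so their values are no measured size. TR2 lay above TR1 at least 2.32-fold for CABCOCO1, 2.52-fold for PPP2R2B and 1.48-fold for GZMH. GPR183 was detected on 1 of 2 TR1 arrays and TXNIP on 1 of 2 TR2 arrays. Without the block, the difference between the clones stayed called for all 27 (adjusted p up to 0.031). A call against WT was then lost in TR1 for WDR70 (0.089), TRIM68 (0.11), KLF2 (0.17), ASNS (0.063), NKG7 (0.17), GIMAP5 (0.33) and RAG1 (0.11), and in TR2 for RAI14 (0.059), FGD3 (0.11), KLF2 (0.43), ASNS (0.48), CD1E (0.15), NKG7 (0.2), GZMH (0.22), SH3GL3 (0.21), GIMAP1 (0.086), GIMAP5 (0.43) and RAG1 (0.078) (adjusted p without the block after each gene).

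Against TR3, 11 did. Higher in TR2 and lower in TR3 were CCDC26 (1.45), ZNF544 (2.17), WDR70 (1.20), CFTR (3.79), SH3GL2 (2.40), GPR183 (3.06), CD1B (1.28), TMSB15A (1.32), CABCOCO1 (1.51) and PPP2R2B (1.59). Lower in TR2 and higher in TR3 was FGD3 (-1.64). The adjusted p lay between 8.2e-14 and 4.8e-07. ZNF544, CABCOCO1 and PPP2R2B were not detected on either TR3 array, and TR2 lay above TR3 at least 3.88-fold for ZNF544, 2.39-fold for CABCOCO1 and 2.59-fold for PPP2R2B. CFTR was detected on 1 of 2 TR3 arrays. Without the block, the difference between the clones stayed called for all 11 (adjusted p up to 0.0016). The call against WT was then lost in TR3 for WDR70 (0.19), CFTR (0.26), SH3GL2 (0.091), CD1B (0.22), FGD3 (0.1) and TMSB15A (0.29), and in TR2 for FGD3 (0.11).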

How the results depend on the processing

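The replicate block decided most counts. Without it, 54 probes were higher and 39 lower in TR2 than in WT, 408 and 257 than in TR1, and 88 and 32 than in TR3. Quantile normalisation of the raw intensities gave these counts too. All fits on raw intensities, with or without normexp, had no block, here and below. They are to be read against the counts without the block. With normexp background correction and no block the counts were 53 and 36, 398 and 212, and 83 and 19. Fitting only the arrays compared raised the counts against TR3 to 533 and 540, and array weights to 469 and 478. Leaving out 1 array gave 84 to 383 higher and 55 to 387 lower against WT, 425 to 580 and 219 to 381 against TR1, and 107 to 133 and 45 to 109 against TR3. The genes called against WT and above or below both other clones, 94 and 41, were 24 and 8 without the block, 26 and 7 with normexp, and 36 to 83 and 8 to 44 with 1 array left out. A stricter detection limit, detection in any line, no filter and a trended robust prior kept every count within 1.5 times. All 518 probes called against WT kept their sign where measured in every alternative. The block, filters, priors, array weights and fitting only the arrays compared leave the log2 difference unchanged. Only raw intensities and left-out arrays could therefore alter a sign. The calls lost with normexp, given next, are again from a fit with no block. Of 94 named genes, 46 lost their call without the block, on processed or quantile-normalised raw values, 53 with normexp, 10 with array weights and up to 3 under the other settings on all arrays, and 35 of the 83 called kept it under every left-out array. In 4 equal classes of mean level over the arrays, from the lowest to the highest, 2.92%, 5.88%, 5.12% and 2.69% of genes were called.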
